A study of Mus musculus with 8 samples.

Results

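Smooth muscle contracts when myosin filaments pull on actin filaments that are anchored to dense bodies and to an intermediate filament network of desmin. Calcium, acting through calmodulin, switches on myosin light chain kinase, and calponin, transgelin, tropomyosin and smoothelin are proteins of the actin filament that bind or regulate it. In the prostate these proteins are best known from the fibromuscular stroma around the glands, and their genes are textbook targets of serum response factor and its partner myocardin. Values are given here for 10 such genes, Myh11, Mylk, Acta2, Actg2, Tpm2, Cnn1, Tagln, Smtn, Des and Synpo2. They were taken by name, as the probes annotated with these mouse symbols, which gave 18 of the 25697 probes on the array. All 18 were above background on at least 1 array, and they make up 10 of the 13072 features tested.

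The samples were prostates of C57Bl/6 mice on 8 expression beadchip arrays, 1 array per sample. At 30 weeks of age, wild-type prostate without tumour (n = 2) and untreated TRAMP tumour (n = 2) were sampled. The other tumours came from mice of 24 weeks. They were either TRAMP mice on cromolyn, which keeps mast cells from releasing their granules, since the age of 8 weeks (n = 3), or TRAMP KitW-sh (n = 1). TRAMP mice carry viral T antigens under a probasin promoter, which is active in prostate epithelium, so all 3 tumour groups share this transgene. KitW-sh is an inversion that disturbs expression of Kit. Mice with it lack mast cells, and other cells that depend on Kit can be affected too. The study compares tumours formed with mast cells stabilised or missing with untreated tumours and normal prostate. The ages differ, so treatment or genotype and age cannot be told apart in any comparison of a 24-week with a 30-week group. The KitW-sh group is 1 array, assumed in the tests to vary like the others. The labels do not say whether replicates were separate animals, so the p-values cover the spread among these samples alone, and that spread may be technical.

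Intensity is the brightness of a probe on the linear scale as deposited, and level is its log2 after background correction and normalisation. The lowest and highest deposited intensities were 123.8 and 68806, and a probe counted as above background over 216.3, which is 7.01 on the log2 scale. Between 14535 and 14556 probes lay above it on each array. Differences are between group means of levels, with their standard error (SE) from limma. A gene was called at a Benjamini-Hochberg adjusted p under 0.05 over the 13072 features, and a fold is given as a lower bound where every array of a group was under the background limit. Levels of different genes are not compared, because each probe has its own brightness. In whole tissue, fewer muscle cells and less RNA per muscle cell cannot be told apart.

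All 10 genes were called lower in the cromolyn tumours than in the untreated tumours, and 9 of the 10 were called lower in the KitW-sh tumour, Synpo2 being the exception. The median difference over the 10 genes was -4.92 with cromolyn and -4.55 in the KitW-sh tumour on the log2 scale, against 0.05 and 0.01 over all features. Of all features, 18% were called lower and 18.8% higher with cromolyn, and 11.2% lower and 11.4% higher in the KitW-sh tumour. Falls of 16-fold or more were called for 6 of the 10 genes in each comparison, against 1.47% and 0.834% of all features. Acta2 is outside this count on its brightest probe, which was at the top of the scale in untreated tumours, while its 3 other probes fell by more than 16-fold. The same untreated arrays serve both comparisons. The 10 genes were chosen with earlier results of these data known, so setting them beside the shares of all features is no test of the set. Between wild-type prostate and untreated tumours 1 of the 10 genes was called, Cnn1, where 2.88% of all features were called lower. Summed over the 10 genes, intensity was 238736 and 258239 in wild-type prostate, 150138 and 196960 in untreated tumours, 7465 to 13332 with cromolyn and 19229 in the KitW-sh tumour. Acta2 carried most of the last gap, since without it the sum over the other 9 genes was 4264, 5480 and 5017 with cromolyn and 5368 in the KitW-sh tumour, which lies within the cromolyn arrays. The cromolyn arrays lay below both untreated arrays for 10 of 10 genes, as they did for 30.4% of all features. The KitW-sh array lay below both untreated arrays for 10 of 10 genes, as it did for 43.7% of all features. Both 24-week groups also lay below both wild-type arrays for 10 of 10 genes. Over all features this held for 31.1% with cromolyn and 42.8% in the KitW-sh tumour.

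**Figure D1:**
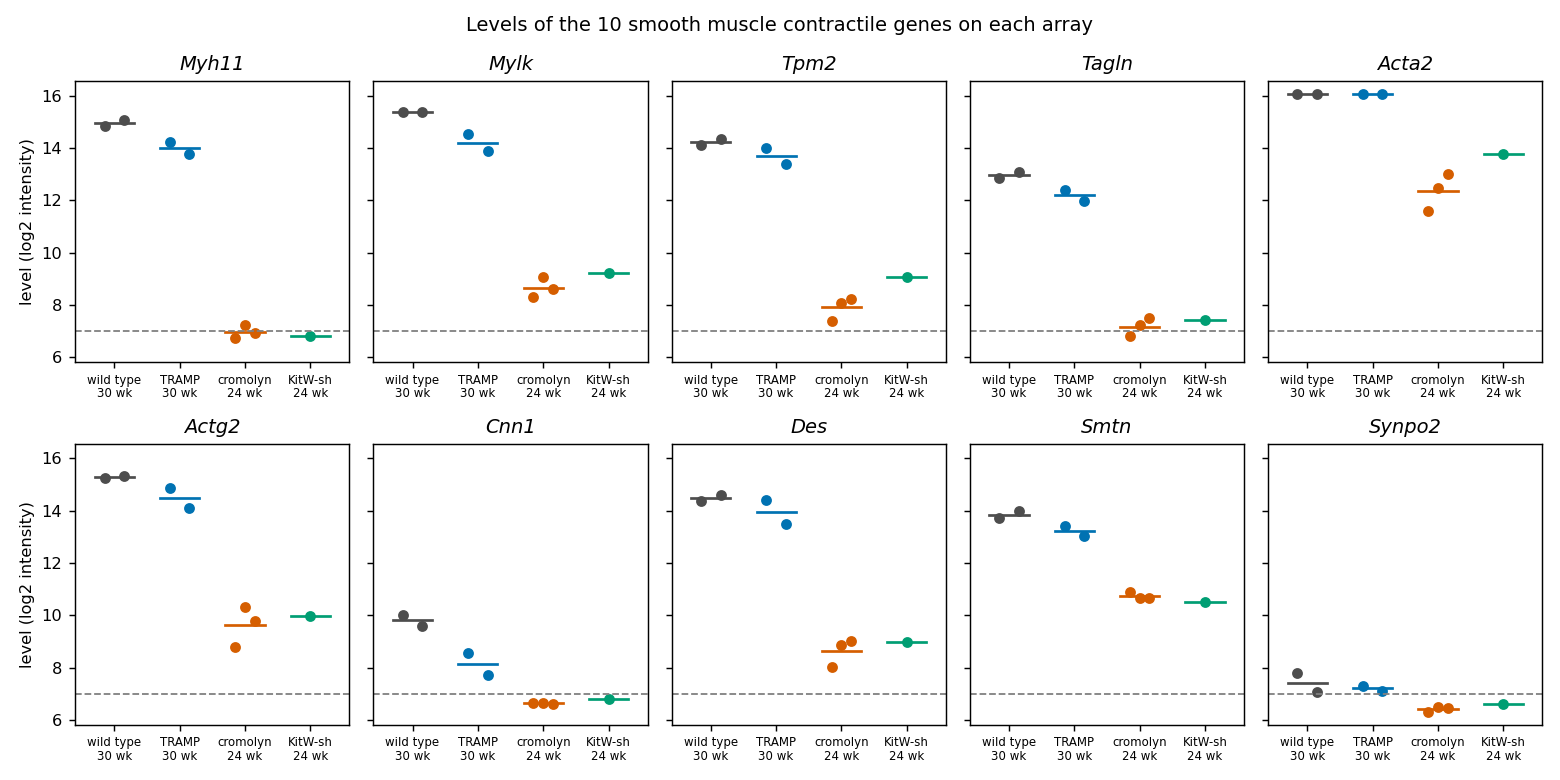
Level (log2 intensity after background correction and normalisation) of each of the 10 genes on each of the 8 arrays, with 1 point per array, a bar at the group mean and a dashed line at the background limit of 7.01. The 24-week groups lie below the 30-week groups in every panel, and Myh11, Tagln, Cnn1 and Synpo2 lie near or under the limit at 24 weeks.

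The gene of the motor itself fell below or close to background. Myh11 (chromosome 16) encodes the smooth muscle myosin heavy chain. Its intensity was 29181 and 34294 in wild-type prostate and 19359 and 14203 in untreated tumours. With cromolyn it was 195.6, 238.9 and 208, and in the KitW-sh tumour 201.5. Only cromolyn replicate 2 was above background among the 24-week arrays. The difference between cromolyn and untreated tumours was -7.04 ± 0.23 (SE) on the log2 scale, a 131.7-fold fall (limma adjusted p = 1.99e-05). As the other cromolyn arrays were under the limit, the 131.7-fold is no exact size. In the KitW-sh tumour Myh11 was at least 128.3-fold lower (limma adjusted p = 0.000153). Between untreated tumours and wild-type prostate the difference was -0.94 ± 0.25, with no overlap between the groups, but it was not called (limma adjusted p = 0.0812). It was called in the fit without cromolyn replicate 2 (adjusted p = 0.0495).

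Mylk, also on chromosome 16, encodes myosin light chain kinase, which phosphorylates the myosin light chain to start contraction. Its brighter probe read 42002 on both wild-type arrays, 23535 and 15355 in untreated tumours, 404.3, 631.8 and 477.6 with cromolyn and 690.7 in the KitW-sh tumour. Mylk thus stayed above background on all 8 arrays, unlike Myh11, and the KitW-sh tumour was above every cromolyn tumour. The fall from untreated tumours was 46.54-fold with cromolyn (-5.54 ± 0.29, limma adjusted p = 5.95e-05) and 31.38-fold in the KitW-sh tumour (-4.97 ± 0.39, adjusted p = 0.000673). On its second probe the falls were 52.02-fold and 29.81-fold. Untreated tumours differed from wild-type prostate by -1.15 ± 0.32 without a call (limma adjusted p = 0.0889), and this too was called in the fit without cromolyn replicate 2 (adjusted p = 0.0434).

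The actins came next in the order of roles. Acta2 (chromosome 19) encodes smooth muscle alpha actin, a protein also made by pericytes and by activated fibroblasts. Its brightest probe was at the top of the scale, with 67882 and 68806 in wild-type prostate and 68806 and 67882 in untreated tumours, so that a difference between these groups could not show on it. It read 3200, 5782 and 8315 with cromolyn and 13861 in the KitW-sh tumour. Because the untreated arrays were at that top, the measured falls are lower bounds, at least 12.97-fold with cromolyn (-3.70 ± 0.38, limma adjusted p = 0.000652) and at least 4.955-fold in the KitW-sh tumour (-2.31 ± 0.51, adjusted p = 0.0219). The second of these calls was lost in the fits without untreated replicate 1 (adjusted p = 0.0913) and without untreated replicate 2 (0.0874).

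The 3 dimmer Acta2 probes gave larger falls than the probe at the top of the scale. With cromolyn these were 50.98-, 59.63- and 44.43-fold, and in the KitW-sh tumour 22.84-, 21.82- and 20.51-fold. Between untreated tumours and wild-type prostate the 3 probes differed by 0.73 ± 0.37, 0.67 ± 0.37 and -0.09 ± 0.31 on the log2 scale, none of them called (limma adjusted p = 0.312, 0.356 and 0.921). On the first of them intensity was 15896 and 18192 in wild-type prostate against 33521 and 23535 in untreated tumours, without overlap. The group means of the other 9 genes were lower in untreated tumours than in wild-type prostate.

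The promoters of 7 of the 10 genes were matched in RefSeq's table (GRCm38.p6), all but Tagln, Myh11 and Actg2. They were searched, over 250 bases before the annotated start and on both strands, for the CArG box, the site of serum response factor, with its 6 inner bases A or T. No exact box was in these 7 windows, and 1.47% of the 32851 promoters in the table hold one. With 1 of the 6 inner bases allowed to be another, only Acta2 had a match, with 2 boxes that begin 84 and 34 bases before the start, and 8.59% of all promoters hold such a box. The Acta2 window is shown because it holds these boxes, in capitals, and the Cnn1 window because Cnn1, which encodes calponin 1, was the gene that was also called between untreated tumours and wild-type prostate. They lie at chr19:34255374-34255623 on the minus strand and chr9:22099003-22099252 on the plus strand, and are written 5′ to 3′ in the direction of the gene.
Acta2: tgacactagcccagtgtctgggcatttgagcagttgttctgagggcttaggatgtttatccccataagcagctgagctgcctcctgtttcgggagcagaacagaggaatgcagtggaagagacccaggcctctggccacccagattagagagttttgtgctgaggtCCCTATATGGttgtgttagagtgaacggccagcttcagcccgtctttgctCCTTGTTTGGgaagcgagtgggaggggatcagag
Cnn1: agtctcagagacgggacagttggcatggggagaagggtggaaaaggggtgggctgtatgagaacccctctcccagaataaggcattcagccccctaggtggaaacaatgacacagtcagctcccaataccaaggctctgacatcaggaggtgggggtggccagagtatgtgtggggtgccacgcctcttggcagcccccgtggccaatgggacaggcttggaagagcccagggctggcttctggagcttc
Such a match is a description of the letters in these windows. Sites farther from the start were not searched.

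Actg2 (chromosome 6) encodes the gamma actin of enteric and other visceral smooth muscle. Its intensity was 38591 and 41179 in wild-type prostate, 29767 and 17442 in untreated tumours, 528.6, 1379 and 976.4 with cromolyn and 1089 in the KitW-sh tumour. All arrays remained above background, and the KitW-sh tumour lay within the cromolyn arrays. The fall was 28.48-fold with cromolyn (-4.83 ± 0.46, limma adjusted p = 0.000479) and 22.68-fold in the KitW-sh tumour (-4.50 ± 0.62, adjusted p = 0.00436). Untreated tumours differed from wild-type prostate by -0.81 ± 0.51 (limma adjusted p = 0.427). Probe sequences were not used here, so binding of a probe to transcripts of a related actin was not tested. Acta1, the skeletal muscle actin, had group mean levels of 14.96 in wild-type prostate, 13.86 in untreated tumours, 9.14 with cromolyn and 7.87 in the KitW-sh tumour, the last 2 lower than in untreated tumours (limma adjusted p = 0.00389 and 0.00908).

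**Figure D2:**
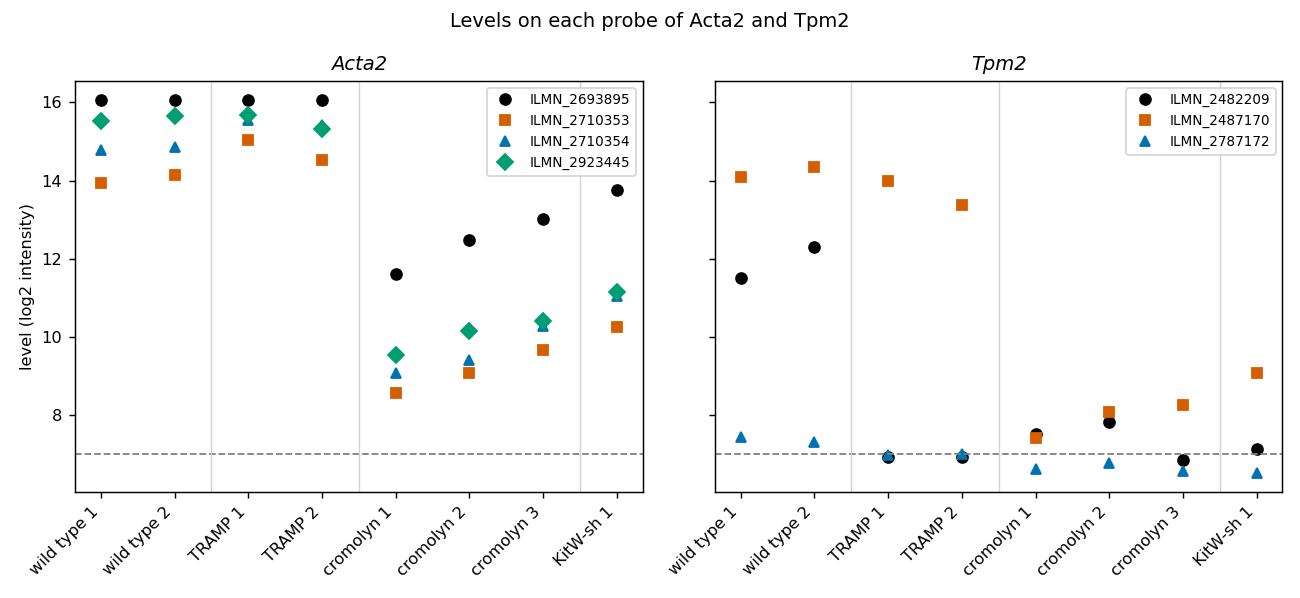
Level (log2 intensity after background correction and normalisation) on each probe of Acta2 and of Tpm2, with 1 point per array, arrays named by group and replicate, and a dashed line at the background limit of 7.01. The 4 probes of Acta2 fall together at 24 weeks, and 1 probe of Tpm2, ILMN_2482209, is high in wild-type prostate only.

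The probes of Tpm2, the first of the genes for proteins on the actin filament, disagreed. Tpm2 (chromosome 4) encodes beta tropomyosin, which is made in smooth and in skeletal muscle. On its brightest probe intensity was 17585 and 21007 in wild-type prostate, 16339 and 10712 in untreated tumours, 256.9, 357.1 and 391.1 with cromolyn and 630.8 in the KitW-sh tumour. The fall was 54.73-fold with cromolyn (-5.77 ± 0.31, limma adjusted p = 6.63e-05) and 24.19-fold in the KitW-sh tumour (-4.60 ± 0.42, adjusted p = 0.00107). A second probe, ILMN_2482209, read 3011 and 5132 in wild-type prostate but 209 on both untreated arrays, which is below the background limit, and 203.5 to 315.5 on the 24-week arrays. On it Tpm2 was at least 29.84-fold lower in untreated tumours than in wild-type prostate (difference -4.98 ± 0.38, limma adjusted p = 0.00119 over all probes), while the brightest probe differed by -0.54 ± 0.34 (adjusted p = 0.431). The third probe, ILMN_2787172, was not above background in untreated or 24-week tumours, so the falls of Tpm2 from untreated tumours rest on the brightest probe. With the mean of the 3 probes these differences were -1.88 with cromolyn and -1.62 in the KitW-sh tumour, both still called (limma adjusted p = 0.000651 and 0.00722), and Tpm2 was then also called between untreated tumours and wild-type prostate (-1.97, adjusted p = 0.00396).

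Skeletal muscle marker genes were also higher in wild-type prostate. Of 17 such genes tested, 13 were called lower in untreated tumours than in wild-type prostate, where 2.88% of all features were. The median difference of the 17 was -3.99, and their summed intensity was 104404 and 147961 in wild-type prostate against 18454 and 24311 in untreated tumours. All 17 were above background on both wild-type arrays, and 7 of them, Myh1, Myh4, Tnnt3, Casq1, Ryr1, Pvalb and Ttn, on neither untreated array. Their part in the second Tpm2 probe and in the wild-type levels of Des and Synpo2, which skeletal muscle also makes, was not tested. With cromolyn 2 of the 17 were called lower than in untreated tumours and with KitW-sh 2, where 18% and 11.2% of all features were. The median differences of the 17 were 0.10 and -0.21 (0 in both with undetected genes at their bound). The 7 genes at background in untreated tumours had no room for a measured fall. The 2 called genes were Acta1, in both comparisons, and Tnnc2, which encodes troponin C of fast skeletal muscle and had a level of 11.32 in untreated tumours. With cromolyn Tnnc2 was lower by 17.61-fold (limma adjusted p = 0.00436), and in the KitW-sh tumour by at least 19.94-fold (0.0129). Of the cromolyn arrays only replicate 2 was above background for Tnnc2, with 503.8, so the 17.61-fold is no exact size. Cromolyn replicate 2 had the highest summed skeletal intensity of the 24-week arrays, 10349 against 3544 to 3678 on the other 3.

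Tagln (chromosome 9) encodes transgelin, also called SM22, an actin-binding protein used as an early marker of smooth muscle. Its intensity was 7499 and 8845 in wild-type prostate, 5530 and 4100 in untreated tumours, 198.8, 237.1 and 269.3 with cromolyn and 257.8 in the KitW-sh tumour. Cromolyn replicate 1 was not above background, and the other 24-week arrays were little above it. The fall was 32.34-fold with cromolyn (-5.02 ± 0.26, limma adjusted p = 5.95e-05) and 27.47-fold in the KitW-sh tumour (-4.78 ± 0.35, adjusted p = 0.000539).

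Cnn1 (chromosome 9) encodes calponin 1, which binds actin and holds back the myosin ATPase. It was the one gene of the 10 called between untreated tumours and wild-type prostate. Intensity was 1122 and 866.6 in wild-type prostate and 470.1 and 296.3 in untreated tumours, a 3.177-fold fall (-1.67 ± 0.31, limma adjusted p = 0.0266). On the 24-week arrays it read 186.5 to 199.4 and was above background on none of them, which puts it at least 2.196-fold below untreated tumours with cromolyn (limma adjusted p = 0.00685) and at least 2.197-fold below in the KitW-sh tumour (adjusted p = 0.0458). The call against wild-type prostate was lost in the fits without wild-type replicate 1 (adjusted p = 0.112), wild-type replicate 2 (0.0716), untreated replicate 2 (0.126) or cromolyn replicate 3 (0.0533). The KitW-sh call was lost without any 1 of wild-type replicate 1 (0.0617), wild-type replicate 2 (0.0617), untreated replicate 1 (0.144), cromolyn replicate 1 (0.0639) or cromolyn replicate 3 (0.0725).

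Smtn (chromosome 11) encodes smoothelin, an actin-binding protein of contractile smooth muscle cells. It kept clear signal on all 8 arrays. Its brightest probe read 13560 and 16191 in wild-type prostate, 10961 and 8426 in untreated tumours, 1979, 1716 and 1726 with cromolyn and 1528 in the KitW-sh tumour. The cromolyn arrays were close together, and the KitW-sh tumour lay below all of them. The fall was 5.552-fold with cromolyn (-2.47 ± 0.19, limma adjusted p = 0.00023) and 6.611-fold in the KitW-sh tumour (-2.72 ± 0.26, adjusted p = 0.00117), and its other probes gave 4.271- and 5.469-fold with cromolyn.

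Des (chromosome 1) encodes desmin, the muscle intermediate filament that links dense bodies. Its intensity was 21007 and 24826 in wild-type prostate, 21946 and 11495 in untreated tumours, 346.8, 554.9 and 607.6 with cromolyn and 586.6 in the KitW-sh tumour. The 2 groups at 30 weeks overlapped (difference -0.53 ± 0.43, limma adjusted p = 0.552), whereas all 24-week arrays were far below them. The fall was 39.7-fold with cromolyn (-5.31 ± 0.39, limma adjusted p = 0.000188) and 31.65-fold in the KitW-sh tumour (-4.98 ± 0.52, adjusted p = 0.00169).

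Synpo2 (chromosome 3) encodes synaptopodin 2, also called myopodin, an actin-bundling protein of dense bodies and Z discs. It was dim throughout, at 308.4 and 222.7 in wild-type prostate and 245.7 and 227.5 in untreated tumours. On the 24-week arrays it read 167.1 to 184.4, above background on none. It was at least 1.155-fold lower with cromolyn than in untreated tumours (limma adjusted p = 0.0371). This call was lost in the fits without untreated replicate 1 (adjusted p = 0.204), untreated replicate 2 (0.126), cromolyn replicate 1 (0.0831) or cromolyn replicate 3 (0.0792). In the KitW-sh tumour Synpo2 was not called (limma adjusted p = 0.215).

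**Figure D3:**
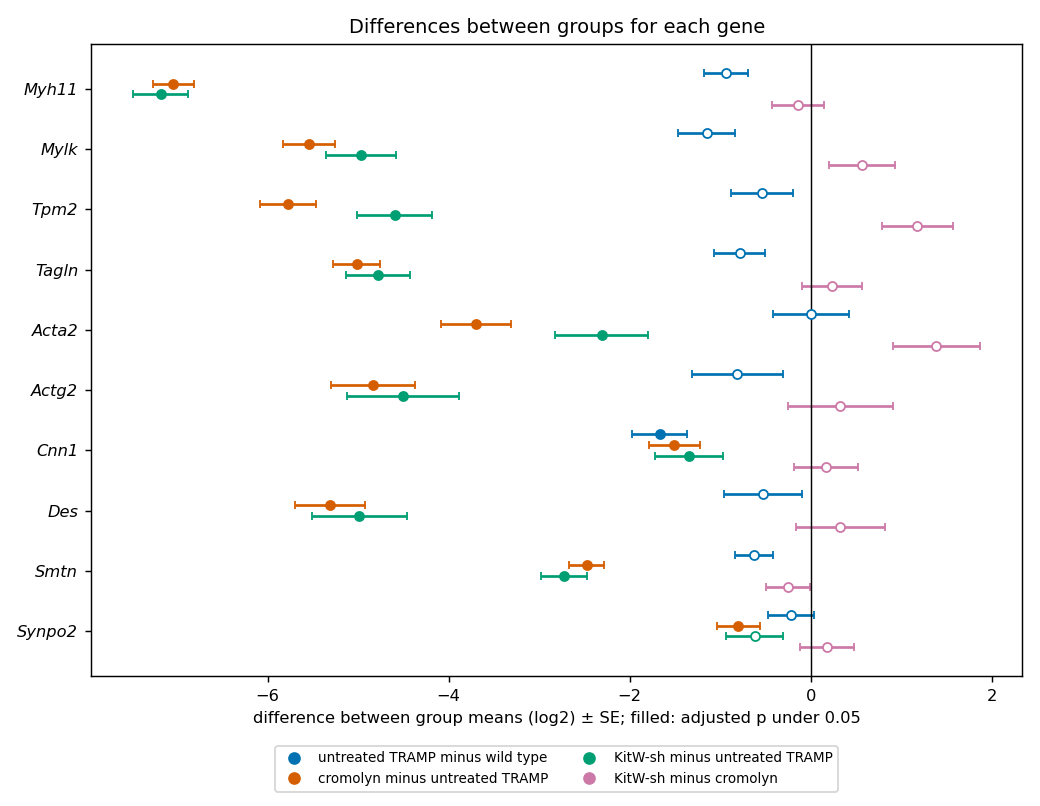
Difference between group means (log2) with its standard error for each of the 10 genes in 4 comparisons, with filled points where the limma adjusted p is under 0.05. With cromolyn the fall from untreated tumours reaches -7.04 for Myh11. Points of Cnn1 and Synpo2 at 24 weeks, and of Myh11 in the KitW-sh tumour, are fitted against levels below background and are no measure of size. The Myh11 point with cromolyn is no exact size, since only cromolyn replicate 2 was above background. Differences between untreated tumours and wild-type prostate lie between -1.67 and 0, and no gene is called between the KitW-sh and cromolyn tumours.

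Of the 10 genes, 9 were not called between untreated tumours and wild-type prostate, which does not show that they were alike. The median difference of the 10 genes from wild-type prostate was -0.71, against -0.01 over all features. Both untreated arrays lay below both wild-type arrays for 7 of the 10 genes, as they did for 30% of all features. Untreated replicate 2 was lower than replicate 1 for 10 of 10 genes. The share of all features in this order was not counted, so it cannot be read as a trait of these genes.

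Against wild-type prostate the 24-week tumours were lower again. All 10 genes were called with cromolyn, where 22.8% of all features were called lower, and 9 with KitW-sh, where it was 15.2%. Synpo2 was again the gene not called in the KitW-sh tumour (limma adjusted p = 0.0898). Its call with cromolyn (adjusted p = 0.0127) was lost without wild-type replicate 1 (0.0514), and it was called in the KitW-sh tumour without wild-type replicate 2 (0.0258). Myh11 was 251.8-fold lower with cromolyn (-7.98 ± 0.23, limma adjusted p = 2.16e-05) and at least 245.4-fold lower in the KitW-sh tumour (adjusted p = 0.000217). The 251.8-fold is no exact size, since only cromolyn replicate 2 was above background. Cnn1 was at least 6.976-fold lower with cromolyn (limma adjusted p = 0.000249) and at least 6.98-fold lower in the KitW-sh tumour (0.00196). The Acta2 call in the KitW-sh tumour (limma adjusted p = 0.0167) was lost without wild-type replicate 1 (0.0539) or wild-type replicate 2 (0.0583).

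The KitW-sh tumour and the cromolyn tumours were not told apart on any of the 10 genes. None was called by limma, where 0% of all features were called lower and 0.0229% higher, and 2 of the 10, Tpm2 and Acta2, had an unadjusted p under 0.05 (0.0217 and 0.0254). The KitW-sh array was above all 3 cromolyn arrays for 5 genes, within them for 4 and below them for 1, where over all features it was above for 23.9% and below for 21.3%. Of the 5 genes, Cnn1 and Synpo2 were under background on all of these arrays, which leaves 3 with an order, Mylk, Tpm2 and Acta2. The gene below was Smtn. The intervals of the difference remain wide with 1 array. For Acta2 the KitW-sh level was higher by 1.39 with a 95% interval of 0.23 to 2.54, and for Tpm2 by 1.18 with an interval of 0.23 to 2.12. The 3 dimmer Acta2 probes differed by 1.16 ± 0.43, 1.45 ± 0.43 and 1.12 ± 0.36, none called (limma adjusted p = 0.865, 0.771 and 0.821). For Mylk the interval was -0.30 to 1.44, for Actg2 -1.07 to 1.73 and for Des -0.85 to 1.51. Within the cromolyn group replicate 1 was the lowest array for 8 of the 10 genes, and the share of all features in this order was not counted.

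Factors known to act on smooth muscle genes, among them the partners at the CArG box, moved unequally. Myocd encodes myocardin, the coactivator of serum response factor in smooth and cardiac muscle. Its intensity was 2116 and 2295 in wild-type prostate, 1447 and 999.6 in untreated tumours, and 182.4 to 200.6 on the 24-week arrays, above background on none of those. It was at least 8.655-fold lower with cromolyn than in untreated tumours (limma adjusted p = 0.000103) and at least 8.66-fold lower in the KitW-sh tumour (adjusted p = 0.000833). Srf, serum response factor itself, had group mean levels of 11.36, 11.49, 11.29 and 11.31 in wild-type, untreated, cromolyn and KitW-sh samples. Foxf1, a forkhead factor of visceral mesenchyme, was higher with cromolyn than in untreated tumours by 1.26 ± 0.32 (limma adjusted p = 0.0228). Mef2c was not called between these groups (limma adjusted p = 0.411). Its group mean levels were 10.45 in wild-type prostate, 9.16 in untreated tumours, 8.69 with cromolyn and 8.60 in the KitW-sh tumour. Against wild-type prostate Mef2c and Myocd were called lower in both 24-week groups, and Foxf1 was called higher with cromolyn. Of the 8 factors and cofactors tested, 1 was called lower and 1 higher with cromolyn than in untreated tumours. Of all features 18% were called lower and 18.8% higher there. In the KitW-sh tumour 1 was called lower and 0 higher than in untreated tumours, where it was 11.2% and 11.4% of all features.

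Other structural proteins of the smooth muscle filaments and dense bodies shared the fall. Of 13 tested, 9 were called lower with cromolyn than in untreated tumours and 9 in the KitW-sh tumour, with none higher. Over all features 18% were called lower with cromolyn and 11.2% in the KitW-sh tumour. The median differences of the 13 were -1.93 in both. Lmod1, leiomodin 1, which nucleates actin filaments, was at least 8.27-fold lower with cromolyn (limma adjusted p = 8.07e-05). Synm, synemin, a partner of desmin, was 33.73-fold lower with cromolyn (-5.08 ± 0.47, adjusted p = 0.000417) and 44.35-fold lower in the KitW-sh tumour (-5.47 ± 0.63, adjusted p = 0.00227). Pgm5, aciculin, a protein of adherens junctions in muscle, was 12.75-fold lower with cromolyn (-3.67 ± 0.43, limma adjusted p = 0.00106). Myl6, the essential light chain that smooth muscle myosin shares with non-muscle myosin, had a difference of -1.55 ± 0.17 (limma adjusted p = 0.000842). Between untreated tumours and wild-type prostate 2 of the 13 were called, both lower, where 2.88% of all features were called lower. These were Sgca, alpha-sarcoglycan, and Hspb6, a small heat shock protein of muscle. Their differences were -1.92 ± 0.21 and -1.02 ± 0.21 (limma adjusted p = 0.00401 and 0.0375).

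Of 16 channels, receptors, kinases and phosphatase regulators that control contraction, 5 were called lower with cromolyn, where 18% of all features were, and 1 in the KitW-sh tumour, where 11.2% were. None was called higher, and the median differences were -0.30 and -0.32. Kcnmb1, the beta subunit of the calcium-activated potassium channel of smooth muscle, was lower with cromolyn (-1.06 ± 0.20, limma adjusted p = 0.00754) and at least 2.159-fold lower in the KitW-sh tumour (adjusted p = 0.029). Prkg1, the cGMP-dependent kinase that relaxes smooth muscle, was lower with cromolyn (-0.69 ± 0.18, limma adjusted p = 0.0252), where only replicate 2 was above background. Cav1, caveolin 1, was lower with cromolyn (-2.73 ± 0.77, limma adjusted p = 0.0321). Between untreated tumours and wild-type prostate 2 of the 16 were called, both lower, where 2.88% of all features were called lower. They were Gucy1a1, a subunit of the nitric oxide receptor, and Ppp1r14a, the myosin phosphatase inhibitor CPI-17. Their differences were -1.72 ± 0.26 and -1.63 ± 0.25 (limma adjusted p = 0.0124 and 0.0141). Gucy1b1, another subunit of the nitric oxide receptor, went the other way in its group means. Its group mean levels were 7.32 in wild-type prostate, 8.26 in untreated tumours, 9.34 with cromolyn and 9.31 in the KitW-sh tumour. Cromolyn replicate 2, with an intensity of 326.9, lay below the untreated arrays at 399 and 390.2. Cromolyn replicates 1 and 3 were at 1032 and 1290. Gucy1b1 was called higher only with cromolyn against wild-type prostate.

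Of 11 non-muscle relatives of the contractile proteins, 3 were called lower and 1 higher with cromolyn, and 2 lower and 1 higher in the KitW-sh tumour, with median differences of -0.18 and -0.17. Over all features 18% were called lower and 18.8% higher with cromolyn, and 11.2% and 11.4% in the KitW-sh tumour. Myh10, the heavy chain of non-muscle myosin IIB, was higher by 1.97 ± 0.16 with cromolyn (limma adjusted p = 0.000271) and by 2.32 ± 0.22 in the KitW-sh tumour (adjusted p = 0.00115). Myh9, the heavy chain of non-muscle myosin IIA, was lower, with differences of -1.71 ± 0.21 and -1.47 ± 0.29 (limma adjusted p = 0.0014 and 0.0144). Their levels on the 24-week arrays were above background, where Myh11 was above it only on cromolyn replicate 2.

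**Figure D4:**
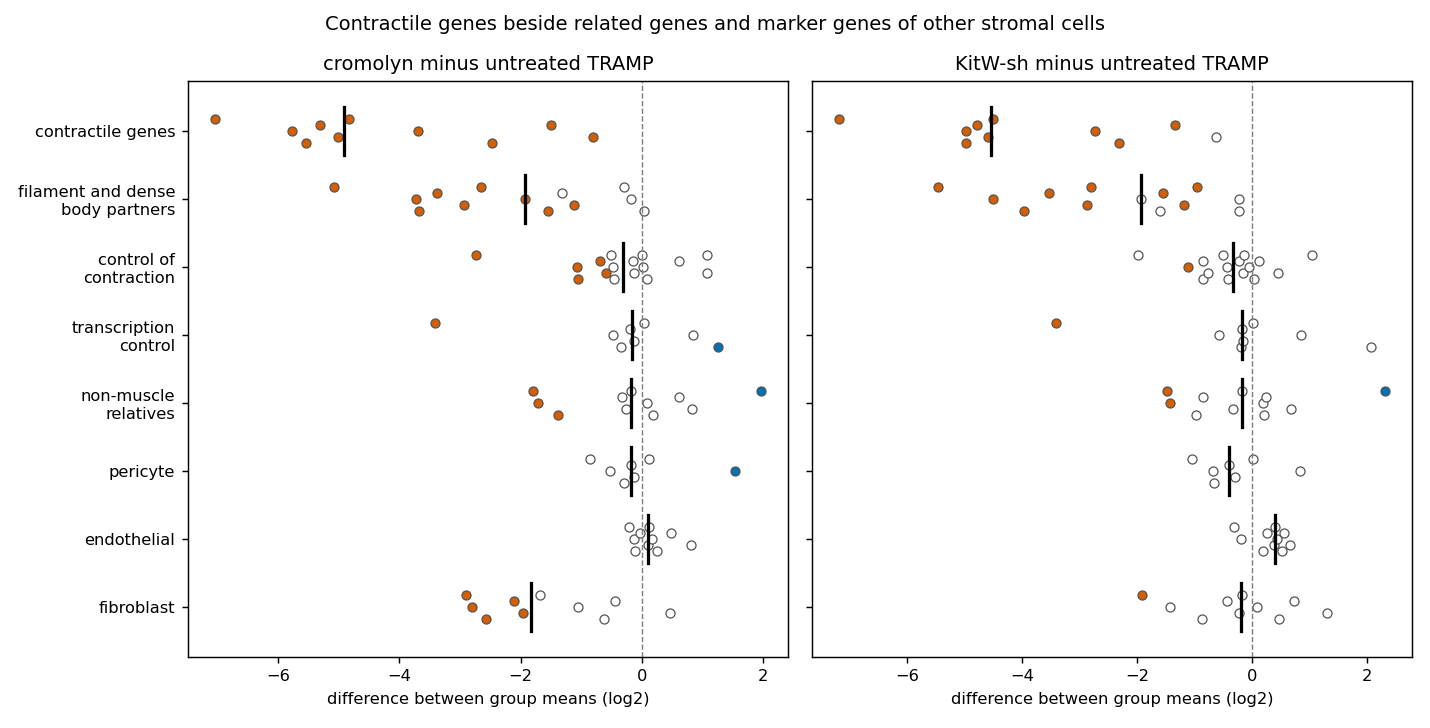
Difference between group means (log2) for each gene of 8 lists, with cromolyn minus untreated tumours on the left and KitW-sh minus untreated tumours on the right. Each point is 1 gene, filled where it was called lower (orange) or higher (blue), and the vertical bars are list medians, which are -4.92 and -4.55 for the 10 contractile genes and 0.11 and 0.40 for the endothelial markers.

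Markers of other cells in the tissue were set beside the contractile genes, and their part in the fall was not tested. Against untreated tumours 18% of all features were called lower and 18.8% higher with cromolyn. In the KitW-sh tumour it was 11.2% lower and 11.4% higher. Of 10 endothelial markers 0 were called in either direction by limma with cromolyn or KitW-sh against untreated tumours, with median differences of 0.11 and 0.40, and 0 had an unadjusted p under 0.05 in either comparison. Esam and Emcn, 2 endothelial surface proteins, had levels of 11.11 and 10.51 in untreated tumours and 11.09 and 10.68 with cromolyn. Of 7 pericyte markers 1 was called higher with cromolyn and 0 in the KitW-sh tumour by limma, and 2, Cspg4 and Notch3, were lower at an unadjusted p under 0.05 in both comparisons. The called gene was Rgs5, a G protein regulator of pericytes, higher by 1.54 ± 0.42 (limma adjusted p = 0.0281). Mcam, a pericyte and endothelial adhesion protein, had levels of 10.96 in untreated tumours, 10.65 with cromolyn and 10.56 in the KitW-sh tumour. The summed pericyte intensity was 4240 and 4367 in untreated tumours, 3918 to 4641 with cromolyn and 3587 in the KitW-sh tumour. The cromolyn sums thus spanned the untreated ones. Against wild-type prostate 4 of the 7 pericyte markers were called lower with cromolyn and 4 in the KitW-sh tumour. Their median differences were -0.77 and -0.90. For the 10 endothelial markers these counts were 4 and 0. Over all features 22.8% and 15.2% were called lower in these comparisons. Of 10 fibroblast markers 5 were called lower with cromolyn and 1 in the KitW-sh tumour. Their summed intensity was 45199 and 54955 in untreated tumours, 11786 to 22370 with cromolyn and 37025 in the KitW-sh tumour, and Dcn, decorin, was lower with cromolyn (-2.90 ± 0.77, limma adjusted p = 0.0258). Fbln1, fibulin 1, was not called, with levels of 11.88 in untreated tumours, 12.35 with cromolyn and 13.18 in the KitW-sh tumour (limma adjusted p = 0.555 and 0.264).

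Epithelial and neuroendocrine markers separated the same arrays. Their counts against untreated tumours stand beside 18% of all features called lower and 18.8% higher with cromolyn. For the KitW-sh tumour these shares were 11.2% and 11.4%. Of 10 luminal epithelial markers 7 were called lower with cromolyn and 5 in the KitW-sh tumour. Their summed intensity was 113804 and 117493 in untreated tumours, 10575 to 21752 with cromolyn and 23941 in the KitW-sh tumour. Krt8, a keratin of luminal cells, was lower in both, with differences of -6.96 ± 0.81 and -4.41 ± 1.09 (limma adjusted p = 0.00102 and 0.0309). Foxa1, a forkhead factor of prostate epithelium, was not called, with levels of 13.91 in untreated tumours, 13.68 with cromolyn and 14.07 in the KitW-sh tumour (limma adjusted p = 0.639 and 0.841). Pbsn, probasin, a secretory protein that defines prostate epithelium, was above background on none of the 24-week arrays. Of 9 basal epithelial markers 6 and 3 were called lower, and Krt5, Trp63 and Col17a1 were above background on none of the 24-week arrays. Itgb4, integrin beta 4, was lower with cromolyn (-2.61 ± 0.75, limma adjusted p = 0.0345) but not called in the KitW-sh tumour (0.0585), and Krt14, a basal keratin, had differences of -4.01 ± 1.30 and -4.78 ± 1.74 without a call (limma adjusted p = 0.0507 and 0.0982). The summed basal intensity was 14128 and 17511 in untreated tumours, 3572 to 5022 with cromolyn and 3054 in the KitW-sh tumour. Of 10 neuroendocrine markers 7 were called higher with cromolyn and 6 in the KitW-sh tumour. Their summed intensity was 2160 and 2316 in untreated tumours, 52346 to 55123 with cromolyn and 54013 in the KitW-sh tumour, with all 10 above background on all 4 of the 24-week arrays. Chga, Chgb, Insm1, Scg2, Scg3 and Foxa2 were below it on both untreated arrays. Syp, synaptophysin, was 84.56-fold higher with cromolyn (6.40 ± 0.18, limma adjusted p = 1.67e-05). Stmn2, stathmin 2, was higher with cromolyn (4.37 ± 0.45, limma adjusted p = 0.000625) and not called in the KitW-sh tumour (1.19 ± 0.60, adjusted p = 0.211).

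The 10 genes followed each other across the 8 arrays, with pairwise Pearson r from 0.839 to 0.998. The arrays form a 30-week and a 24-week cluster, so these correlations describe mainly the gap between them and were not tested. Cnn1 and Synpo2, which reach background at 24 weeks, followed the mean profile of the 10 least (r = 0.936 and 0.937), and Mylk the most (0.998). The 6 other named genes whose profile was most like that mean were Ssr4 (r = 0.997), Tfap2c (0.996), Bdh2 (0.996), Slc5a1 (0.995), Gpr108 (0.995) and Mmp7 (0.995), over the same 8 arrays. Mmp7, a metalloproteinase made by glandular epithelium, had group mean levels of 11.05 in wild-type prostate, 10.63 in untreated tumours, 6.28 with cromolyn and 6.41 in the KitW-sh tumour.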

How the data were processed

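The members and gene lists were chosen with earlier results of these data known. The authors' deposited intensity of 25697 probes on 8 arrays was used. BeadStudio is the tool named, per the submitters' processing notes, and its version is not given in the sources used here. Once sorted, the arrays' values were within 0.0489 of each other (log2), so the deposited intensities had been quantile normalised, and their lowest values lay well above 0. A further table with 8 signal columns (16 columns in all) that no label ties to a sample was not used here. The mode (181) and SD (15.2) of background were read from the intensities below the median, and the limit of 216.3 leaves a tail of 0.01. Intensities were corrected with normexp (offset 50), quantile normalised again and put on log2. Of the probes, 18063 were above the limit on at least 1 array. Gene names were brought up to date with a table for GRCm38.p6 (23962 probes matched, 1719 had no name), and the probe with the highest mean was kept per gene. This left 13072 features, 1085 of them unnamed.

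One mean per group was fitted with limma 3.58.1 in R 4.3.3 to all 8 arrays, with 4 residual degrees of freedom and 2.62 from the prior. The two-sided p-values of each of 6 comparisons were adjusted separately by the Benjamini-Hochberg method. Simulated levels were run through the limma fit and its adjustment only. Background correction, normalisation, the background limit, the choice of probes and the bounds were not simulated. Bounds set the dim group at the lowest level above the limit. The number of arrays limits the precision. Replicate numbers did not pair samples. Their deviations correlated at 0.0021 to 0.0743. Named were all members, up to 4 genes of each related list per direction with the smallest p with cromolyn against untreated TRAMP (up to 2 in other comparisons), the 2 brightest genes of each marker list and the 6 nearest profiles. Srf, Cspg4 and Notch3 were named after their values were seen, as were genes listed as not above background. Alternatives were other background corrections, normalisations, filters, probe rules, fits and leaving out each array except the KitW-sh array.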

Additional observations from a re-analysis of the deposited data

How the results depend on the processing

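Over 18 alternatives, 1021 of 1056 member differences kept direction and side of the threshold, 25 lost a call, 7 gained one and 3 turned sign. Those 3 were not called in either setting and were Cnn1 between KitW-sh and cromolyn with the replicate number as a block (-0.055), Synpo2 between untreated TRAMP and wild type without wild-type replicate 1 (0.14, with -0.57 as the other extreme over arrays left out) and Actg2 between KitW-sh and cromolyn without cromolyn replicate 1 (-0.10, with 0.68 as the other extreme). The count of 1 member called between untreated TRAMP and wild type became 2 without background correction, 2 with the mean of probes, 2 with each probe on its own (Tpm2 joined in both, and Myh11 without the correction) and 0 with probes above background on all arrays, which leaves 6 members without Cnn1. With that filter 6 of 6 were called with cromolyn against untreated TRAMP and against wild type. With each probe on its own, the probe with the smallest p was counted for each gene and comparison, which favours a call. The replicate block gave 0, 9, 8, 10, 9 and 0 members for untreated TRAMP against wild type, cromolyn and KitW-sh against untreated TRAMP, the same against wild type and KitW-sh against cromolyn. Leaving out 1 array gave 0 to 3, 9 to 10, 7 to 9, 9 to 10, 8 to 9, and 0 throughout. Where an array left 1 in a group, that array was assumed to vary like the other groups. Fitting only the 2 groups compared moved the share of all features called lower from 2.88% to 5.12% for untreated TRAMP against wild type and from 11.2% to 23.2% for KitW-sh against untreated TRAMP, where Synpo2 was then called (adjusted p = 0.0356). Leaving out untreated replicate 1 or 2 cut these shares to 0.852% and 0.738%, and to 4.95% and 4.88%, and that for cromolyn against untreated TRAMP from 18% to 10.1% and 10.3%. The Cnn1 call in the KitW-sh tumour was lost without background correction (adjusted p = 0.0767), with no filter (0.0517), with trend and robust (0.0505) and with the block (0.053). The cause of the other changes was not tested. Signal near background limits Synpo2, Cnn1, Myh11 and Tagln at 24 weeks, and the top of the scale limits the brightest Acta2 probe.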
